A study of Mus musculus with 6 samples.

Results

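The genes of mitochondrial fusion, fission and mitophagy were examined as a set of 10 named genes, chosen by symbol: *Mfn1*, *Mfn2* and *Opa1* for fusion, *Dnm1l*, *Fis1* and *Mff* for fission, and *Pink1*, *Bnip3*, *Bnip3l* and *Fundc1* for mitophagy. They are 10 of 54232 genes in the count files, and all 10 were well above the filter on low counts. Both groups were wild-type (WT) C57BL/6J mice fed western diet (WD) for 15 weeks, with no genetic change in either. The WD + Tributyrin mice were then needle-fed Tributyrin, a glycerol ester that releases the short-chain fatty acid butyrate, at 5 g/kg for 3 weeks, in blocks of 2 days on and 2 days off. The WD + Vehicle mice received vehicle, which the labels give as PBS. Each group had 3 libraries of heart ventricle mRNA, 1 for each sample, and the labels do not give the age of the mice. No library from a mouse on normal chow was analysed here, so the comparison is of treatment within WD only.

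Mitochondria of the heart muscle cell continually fuse and divide. MFN1 and MFN2 join the outer membranes and OPA1 the inner membranes, while the GTPase DRP1 (*Dnm1l*) is drawn to the outer membrane by adaptors such as MFF and constricts it. Damaged mitochondria are removed by mitophagy, either through PINK1, a kinase that accumulates on depolarised mitochondria and phosphorylates ubiquitin there, or through receptors in the outer membrane (BNIP3, BNIP3L and FUNDC1) that bind the autophagosome directly. Much of the control of these proteins is by phosphorylation, cleavage and ubiquitination, which transcript counts do not measure.

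The libraries held 20369746 to 32734485 counts. Transcripts of the mitochondrial genome took 24.7% ± 1.57 of the counts in vehicle mice and 27.5% ± 1.46 in Tributyrin mice (SD, n = 3 each), with overlapping groups. Defining markers of ventricular cardiomyocytes were abundant in every library, at a summed 54110 to 55620 CPM (counts scaled to the same library total) with vehicle and 52490 to 56630 with Tributyrin, and no marker of the 8 cell type lists was at 0 in all libraries. Of 6 atrial cardiomyocyte markers tested, 0 were higher and 6 lower with Tributyrin, 5 of them at an unadjusted p under 0.05 and 0 past a false-discovery rate (FDR) of 10%. Their summed level was 200.6, 191 and 66.1 CPM in the vehicle mice against 33.6, 68.9 and 57.5 CPM in the Tributyrin mice, so vehicle replicates 1 and 2 were the high libraries. Endothelial markers summed to 828 to 850 CPM with vehicle and 879 to 967 CPM with Tributyrin, without overlap between groups at this scaling. Of these 6 markers, 4 were higher and 2 lower, with a median log2 fold change of 0.05, so the list did not move as a whole. The TMM factors were 1.00 to 1.04 with vehicle and 0.945 to 1.00 with Tributyrin, so the endothelial separation depends on the scaling. Summed levels of the other lists overlapped: fibroblast 867 to 979 and 777 to 961 CPM, smooth muscle and pericyte 681 to 737 and 702 to 838 CPM, macrophage 122 to 151 and 110 to 153 CPM, erythroid 490 to 696 and 383 to 941 CPM, and adipocyte 0.52 to 1.62 and 0.305 to 2.44 CPM, vehicle first. In the other lists, 4 of 9 ventricular cardiomyocyte markers (6 higher, 3 lower), 2 of 7 fibroblast (2 higher, 5 lower, median log2 fold change -0.30), 1 of 6 endothelial, 1 of 5 smooth muscle and pericyte, 0 of 6 macrophage (0 higher, 6 lower) and 0 of 5 erythroid markers had an unadjusted p under 0.05, and 0 passed an FDR of 10%. Whether these shifts have a part in any value below was not tested. In bulk tissue, fewer cells of a type and less RNA per cell cannot be told apart.

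None of the 10 transcripts passed the test of a change with Tributyrin. In edgeR's quasi-likelihood test, 0 of 10 passed an FDR of 10% and 0 of 10 had an unadjusted p under 0.05, where 0% and 4.25% of the 14133 genes tested did so. DESeq2 and limma-voom also called 0 of the 10 at either threshold. Fold changes lay between 0.927 for *Mfn2* and 1.08 for *Bnip3*, and the outermost limits of the 95% intervals were 0.839-fold (*Mfn2*) and 1.22-fold (*Bnip3*). Of the 10 genes, 6 were higher and 4 lower, where 49.6% of all genes were higher. With libraries scaled by size alone the split was 5 and 5, while the share of all genes that were higher fell to 27.5%. Groups did not overlap for 2 of 10 genes, *Mfn1* (higher) and *Mfn2* (lower), where 8.94% of all genes did not overlap, 4.34% higher and 4.61% lower. The median log2 fold change of the 10 genes was 0.07 against -0.0013 over all genes. Their median standard error (SE), 0.08 on the log2 scale against 0.12 over all genes, gives these genes narrower intervals than most.

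Per length of transcript, the genes covered a 31.4-fold range, and their order was led by the kinase of mitophagy. Levels are given as RPKM, which is CPM per kilobase of exon, with the same TMM scaling, as the mean over all 6 libraries. *Pink1* was highest at 322.5 RPKM, above 99.2% of the genes tested, followed by *Mfn2* at 197 RPKM and, well below it, *Mfn1* at 54.3 RPKM. *Fis1* (42.7 RPKM), *Opa1* (31.6 RPKM), *Dnm1l* (26.0 RPKM) and *Bnip3* (23.7 RPKM) formed the middle of the range. *Bnip3l* (10.8 RPKM), *Mff* (10.7 RPKM) and *Fundc1* (10.3 RPKM) were lowest, and still above 78.7% of the genes tested. The ranges over the 6 libraries overlapped for 3 pairs of neighbours in this order, *Dnm1l* with *Bnip3*, *Bnip3l* with *Mff*, and *Mff* with *Fundc1*, and were separate for the others. The order depends on the length assigned to 2 genes. The exons of *Mff* cover 9757 bases, against 1894 bases in its longest principal transcript, and with principal transcript lengths *Mff* moved from rank 9 to rank 5 and *Fis1* from rank 4 to rank 3, above *Mfn1*.

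**Figure D1:**
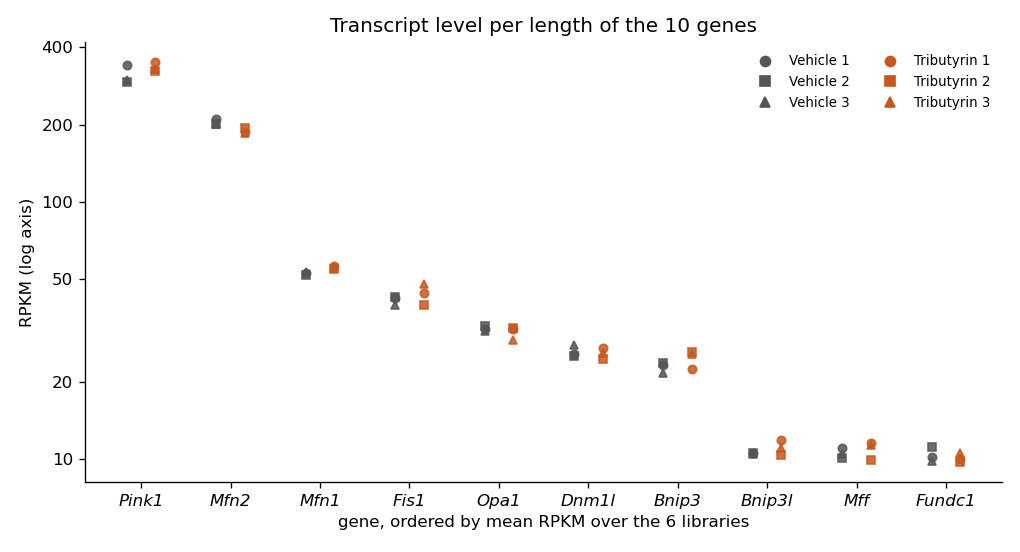
Level per length (RPKM, log axis) of the 10 genes in each library, with grey for WD + Vehicle, orange for WD + Tributyrin, and marker shape for the replicate number. *Pink1* and *Mfn2* lie well above the other 8 genes, and the groups lie close together at every gene compared with the 31.4-fold range between genes.

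Among the fusion genes, *Mfn1* was higher and *Mfn2* lower with Tributyrin, neither past the test, and with library size alone the difference of *Mfn1* was 0.0007 and that of *Mfn2* -0.18 on the log2 scale. *Mfn1*, a GTPase that tethers and fuses outer membranes, lies on chromosome 3 (mm10, chr3:32529465-32579239, plus strand). *Mfn2*, its paralogue, which also tethers mitochondria to the endoplasmic reticulum, lies on chromosome 4 (chr4:147873599-147904704, minus strand). The 300 bases from 250 before to 50 after the RefSeq start of each (GRCm38.p6, the coordinates of mm10) are shown because these were the genes whose groups did not overlap. For *Mfn2* the start nearest to the GENCODE start was taken from 3 in the table. They are chr3:32529232-32529531 (plus strand) and chr4:147904649-147904948 (minus strand), written 5′ to 3′ with motif matches in capitals.
Mfn1: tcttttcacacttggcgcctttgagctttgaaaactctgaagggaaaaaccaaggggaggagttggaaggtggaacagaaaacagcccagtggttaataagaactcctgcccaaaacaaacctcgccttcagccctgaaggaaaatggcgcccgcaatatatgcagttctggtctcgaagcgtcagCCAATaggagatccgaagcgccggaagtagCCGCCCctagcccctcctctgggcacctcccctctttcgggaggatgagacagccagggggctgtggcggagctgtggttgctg
Mfn2: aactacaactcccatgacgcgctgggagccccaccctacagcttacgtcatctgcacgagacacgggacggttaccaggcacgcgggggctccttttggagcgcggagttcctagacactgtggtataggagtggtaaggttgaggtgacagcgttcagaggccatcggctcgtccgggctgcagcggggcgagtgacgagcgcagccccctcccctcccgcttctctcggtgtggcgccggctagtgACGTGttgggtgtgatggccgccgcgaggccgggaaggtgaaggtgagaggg
Motifs were searched on both strands. The *Mfn1* window held a CCAAT box (CCAAT) at -64 from the start and, on the other strand, a GC box (GGGCGG) at -34, which 37.4% and 35.7% of 32851 promoter windows of the same length also held. The *Mfn2* window held neither of these, and held ACGTG, the core of the hypoxia response element, at -2, found in 19.6% of windows. Neither window held CACGTG (the E-box, in 7.15% of windows, each of which also counts for ACGTG) or AAGGTCA (the half-site of oestrogen-related receptors, in 4.72%). The promoter table matched 9 of the 10 genes, all but *Bnip3l*. Of these 9, 7 held a GC box, 6 a CCAAT box, 2 (*Bnip3* and *Mfn2*) ACGTG, 1 (*Bnip3*) the E-box and 0 AAGGTCA. These matches describe the letters in the windows only.

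*Mfn1* was at 324.8, 318.7 and 327.8 CPM in the vehicle mice and at 344.1, 335.9 and 342.2 CPM in the Tributyrin mice. Every Tributyrin library was above every vehicle library. The log2 fold change was 0.07 ± 0.06 (SE), with a 95% interval of 0.956 to 1.16-fold and an edgeR adjusted p of 0.999. The groups overlapped when CPM was scaled by library size alone. *Mfn2* was at 1092, 1046 and 1046 CPM with vehicle and at 975.4, 1011 and 965 CPM with Tributyrin. Here every Tributyrin library was below every vehicle library, and this also held with library size alone. The log2 fold change was -0.11 ± 0.06 (SE), with a 95% interval of 0.839 to 1.02-fold and an edgeR adjusted p of 0.999. With the mitochondrial genome left out before scaling, the log2 fold changes were 0.08 for *Mfn1* and -0.10 for *Mfn2*. Without vehicle replicate 1 they were 0.08 and -0.08, and without vehicle replicate 2 they were 0.06 and -0.12. Each of these fits still holds the other library high in atrial markers, so the part of those markers was not tested. With library size alone the genes without overlap were *Mfn2* and *Fundc1*, both lower, again 2 of 10 where 11.5% of all genes did not overlap.

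*Opa1*, the dynamin-like GTPase of inner membrane fusion and cristae shape, was at 252.6, 259.9 and 248.6 CPM with vehicle and at 251.5, 253.7 and 228.4 CPM with Tributyrin. Tributyrin replicate 3 was the low library and the other 2 Tributyrin mice lay within the range of the vehicle mice. Its log2 fold change was -0.05 ± 0.07 (SE), with a 95% interval of 0.866 to 1.07-fold. Summed over the 3 fusion genes, the level was 290 ± 5.19 RPKM with vehicle and 276 ± 5.57 RPKM with Tributyrin (SD, n = 3). *Mfn2* makes up most of that sum, and its groups did not overlap, as those of *Mfn2* itself did not.

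**Figure D2:**
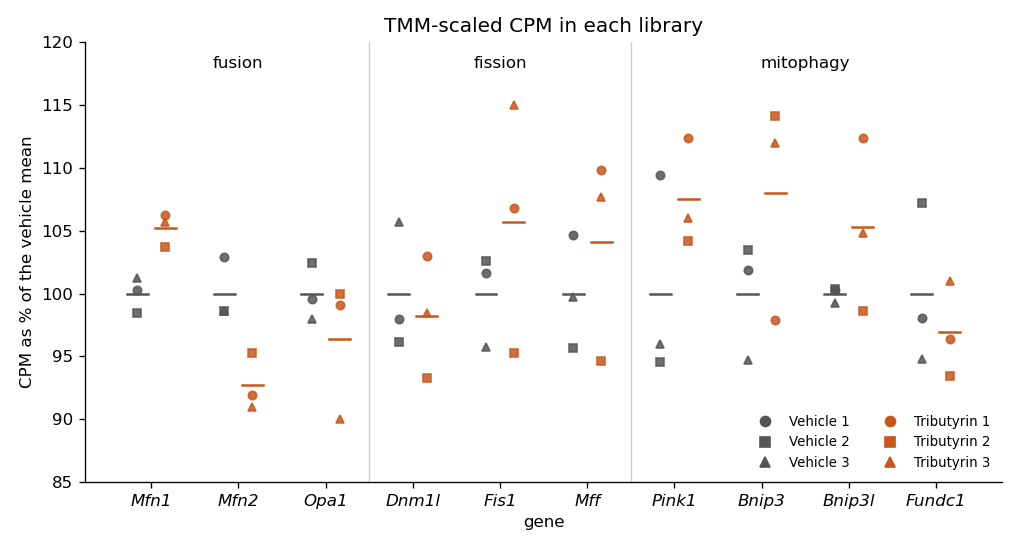
TMM-scaled CPM of each gene in each library as a percentage of the vehicle mean of that gene, ordered by role, with short lines at group means, grey for WD + Vehicle and orange for WD + Tributyrin. Groups are separate for *Mfn1* and *Mfn2* and overlap for the other 8 genes, and Tributyrin replicate 2 (orange square) is the lowest library at each of the 3 fission genes.

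The ratio of *Mfn2* to *Mfn1* was taken within each library, where library scaling and gene length cancel from the difference between groups. Reads per kilobase of *Mfn2* were 3.96, 3.86 and 3.76 times those of *Mfn1* in the vehicle mice and 3.34, 3.54 and 3.32 times in the Tributyrin mice. The ratio was lower in all 3 Tributyrin mice than in any vehicle mouse. Means were 1.95 ± 0.04 with vehicle and 1.77 ± 0.05 with Tributyrin on the log2 scale (SD, n = 3). This separation, and with it the permutation p below, follows from *Mfn1* being higher and *Mfn2* lower in every Tributyrin library. It is no separate support for a change. The difference was -0.18 ± 0.04 (SE), or -11.9%, against a counting error of 0.02 per library. The two-sided exact permutation test gave p = 0.1, the smallest that 3 mice against 3 allow, and 0.2 after Benjamini-Hochberg adjustment over the 2 ratios examined, so this test cannot fall below 0.05 here. Leaving out any library gave -0.21 to -0.16. The same ratio for the receptor paralogues, *Bnip3* to *Bnip3l*, was 2.20, 2.23 and 2.06 with vehicle and 1.89, 2.51 and 2.31 with Tributyrin. Its groups overlapped, with Tributyrin replicate 1 below and the other 2 above all vehicle mice, and the difference of 0.04 ± 0.13 (SE, log2) had an exact permutation p of 0.8 (0.8 adjusted).

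**Figure D3:**
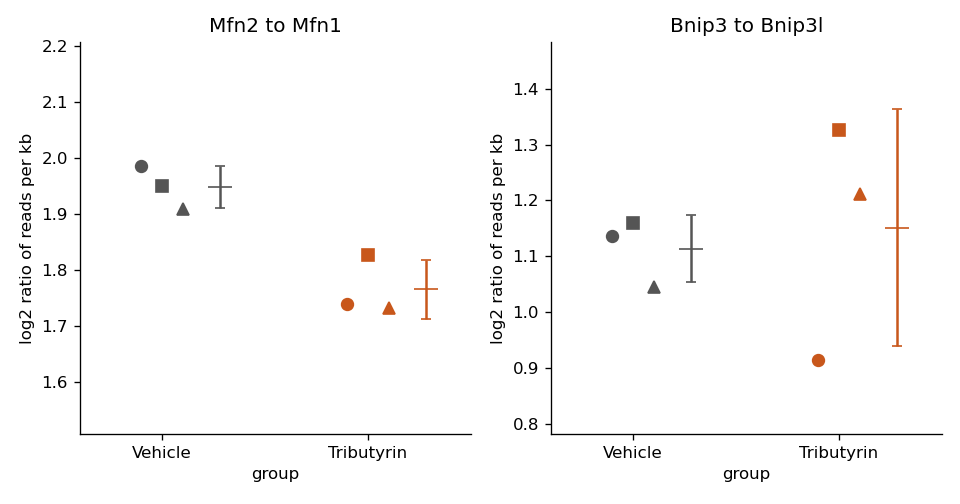
Log2 ratio of reads per kilobase of *Mfn2* to *Mfn1* (left) and of *Bnip3* to *Bnip3l* (right) in each library, with the mean and SD of each group beside the points and both vertical axes spanning the same width. The *Mfn2* to *Mfn1* groups are separate, at 1.91 to 1.99 and 1.73 to 1.83, and the *Bnip3* to *Bnip3l* groups overlap.

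The fission genes overlapped between the groups. *Dnm1l*, which encodes DRP1, was at 133.7, 131.2 and 144.2 CPM with vehicle and at 140.5, 127.2 and 134.3 CPM with Tributyrin. The groups overlapped over most of their range, and the log2 fold change was -0.02 ± 0.07 (SE; 95% interval 0.879 to 1.1-fold). *Fis1*, a tail-anchored outer membrane protein linked to fission and to mitophagy, was at 72.4, 73.1 and 68.2 CPM with vehicle and at 76.1, 67.9 and 81.9 CPM with Tributyrin. Tributyrin replicates held both the highest and the lowest values, and the log2 fold change was 0.08 ± 0.08 (SE; 95% interval 0.93 to 1.2-fold). *Mff*, the adaptor that recruits DRP1, was at 107.4, 98.1 and 102.3 CPM with vehicle and at 112.7, 97.1 and 110.5 CPM with Tributyrin. Of the Tributyrin mice, 2 were above and 1 was below all vehicle mice, for a log2 fold change of 0.06 ± 0.08 (SE; 95% interval 0.921 to 1.18-fold).

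Tributyrin replicate 2 was the lowest of the 6 libraries at all 3 fission genes and, with *Bnip3l* and *Fundc1*, at 5 of the 10 genes. The summed fission level was 78.9, 77.9 and 78.0 RPKM in the vehicle mice and 83.0, 74.0 and 84.9 RPKM in the Tributyrin mice. The SD was thus 0.586 RPKM with vehicle and 5.84 RPKM with Tributyrin, and the means of 78.3 and 80.6 RPKM both lay within the range of the Tributyrin mice. Fusion over fission, as the ratio of the summed levels, was 3.74, 3.68 and 3.68 with vehicle and 3.33, 3.81 and 3.19 with Tributyrin, so 2 Tributyrin mice were below and replicate 2 above all vehicle mice. Among the Tributyrin mice, replicate 2 also had the smallest share of mitochondrial genome counts, at 25.9% against 27.7% and 28.8%, and the highest summed level of atrial markers. The part of either in these values was not tested.

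Of the mitophagy genes, 3 were higher and 1 lower on average, with overlapping groups at each. *Pink1* was at 908.9, 785.5 and 797.6 CPM with vehicle and at 933.7, 865.6 and 880.6 CPM with Tributyrin. Vehicle replicate 1 lay among the Tributyrin mice and the other 2 vehicle mice were below them, for a log2 fold change of 0.10 ± 0.08 (SE; 95% interval 0.955 to 1.21-fold, edgeR adjusted p = 0.999). *Bnip3*, a receptor known for its induction in hypoxia, was at 52.6, 53.5 and 48.9 CPM with vehicle and at 50.6, 59.0 and 57.9 CPM with Tributyrin. Tributyrin replicates 2 and 3 were above all vehicle mice and replicate 1 was among them, for a log2 fold change of 0.11 ± 0.08 (SE; 95% interval 0.952 to 1.22-fold, edgeR adjusted p = 0.999).

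*Bnip3l* (NIX), the receptor that clears mitochondria from maturing red cells and is also expressed in heart, was at 40.8, 40.8 and 40.4 CPM with vehicle and at 45.7, 40.1 and 42.6 CPM with Tributyrin. The vehicle mice were nearly identical and the Tributyrin mice lay on both sides of them, for a log2 fold change of 0.07 ± 0.07 (SE; 95% interval 0.938 to 1.18-fold). Tributyrin replicate 1, the highest in *Bnip3l*, also had the highest summed erythroid markers, 941 CPM, and Tributyrin replicate 2 was lowest in both, at 383 CPM. Vehicle replicate 3 had the next highest erythroid markers, 696 CPM, but the lowest *Bnip3l* of the vehicle mice. The part of erythroid markers in the *Bnip3l* values was not tested. *Fundc1*, an outer membrane receptor on chromosome X, was at 24.0, 26.3 and 23.2 CPM with vehicle and at 23.6, 22.9 and 24.8 CPM with Tributyrin. It had the lowest counts of the 10 genes, 491 to 892 per library, and a log2 fold change of -0.05 ± 0.08 (SE; 95% interval 0.85 to 1.1-fold). All libraries carried Y-linked transcripts and at most 6 counts of *Xist*, so its values come from males only.

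**Figure D4:**
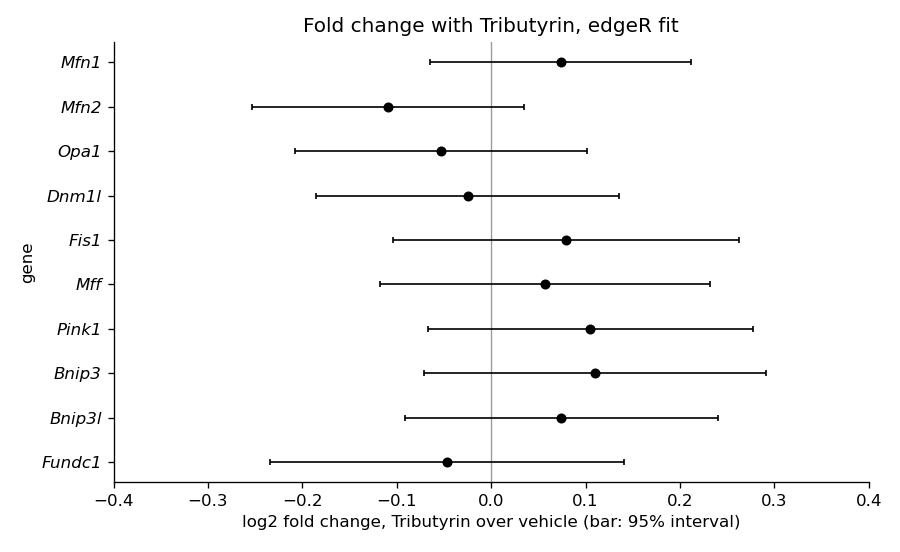
Log2 fold change of WD + Tributyrin over WD + Vehicle for the 10 genes from the edgeR fit, with points for the estimates and bars for the 95% intervals (n = 3 per group). All 10 intervals include 0, and they run from -0.253 (*Mfn2*) to 0.291 (*Bnip3*) at the outermost.

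Counts of 2 receptors could be affected by copies of their sequence elsewhere. Of the 50-base stretches of *Bnip3* transcripts, the read length used, 36.9% also occur in transcripts of other loci (AC160336.1, Gm16439, Gm6532 and Gm9419 among them), and 20.8% of those of *Bnip3l* occur in *Bnip3l-ps*. These loci held 0 to 3 counts per library, so few reads were assigned to them. Reads that fit both places may have been dropped from either, so the levels of *Bnip3* and *Bnip3l* relative to other genes are uncertain. For *Dnm1l* the share was 2.17%, for *Mfn1* 0.885%, and for the other 6 genes 0%. Counting error alone, 0.613% for *Mfn2* and 4% for *Fundc1* per library, was below the spread within groups, 1.35% to 7.14%, for each gene.

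The other genes of these processes were taken from a list of 58, of which 55 passed the filter on low counts, and *Pld6*, *Gdap1* and *Mtfr2*, at 0 to 7 counts per library, did not. In edgeR's test 0 of 55 passed an FDR of 10% and 0 of 55 had an unadjusted p under 0.05, where 4.25% of all genes did. Of the 55, 39 were higher and 16 lower, with a median log2 fold change of 0.04, where 49.6% of all genes were higher. With library size alone, which moved the median of all genes by -0.07, the split was 15 higher and 40 lower, where 27.5% of all genes were higher. By sublist, 10 of 12 genes of fusion and cristae were higher, 7 of 12 of fission and motility, 7 of 12 of the PINK1 pathway, 7 of 9 mitophagy receptors and their control, and 8 of 10 autophagy adaptors and Atg8 proteins, none of them past the test. Groups did not overlap for 3 of 55, *Vdac1* and *Ambra1* (higher) and *Chchd6* (lower), where 8.94% of all genes did not overlap.

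The extremes of the list were both subunits of MICOS, the complex that holds cristae junctions. *Apoo* (MIC26) had the largest increase, from 23.7 ± 2.12 to 28.3 ± 4.56 CPM (log2 fold change 0.26 ± 0.12 SE), and *Chchd6* (MIC25) the largest decrease, from 7.84 ± 0.926 to 6.42 ± 0.227 CPM (-0.28 ± 0.13 SE). They also had the smallest unadjusted p of the list, and their edgeR adjusted p was 0.999. Next in increase were *Nipsnap1*, a mitophagy adaptor, at 0.14 ± 0.31 (SE, log2), and *Oma1*, the protease that cleaves OPA1 under stress, at 0.14 ± 0.08, which had the third smallest unadjusted p. Next in decrease were *Tbk1*, a kinase of mitophagy adaptors, at -0.15 ± 0.10, and *Usp30*, a deubiquitinase of the outer membrane, at -0.15 ± 0.13. *Nipsnap1* had only 12 to 22 counts per library, which gives it the wide error.

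**Figure D5:**
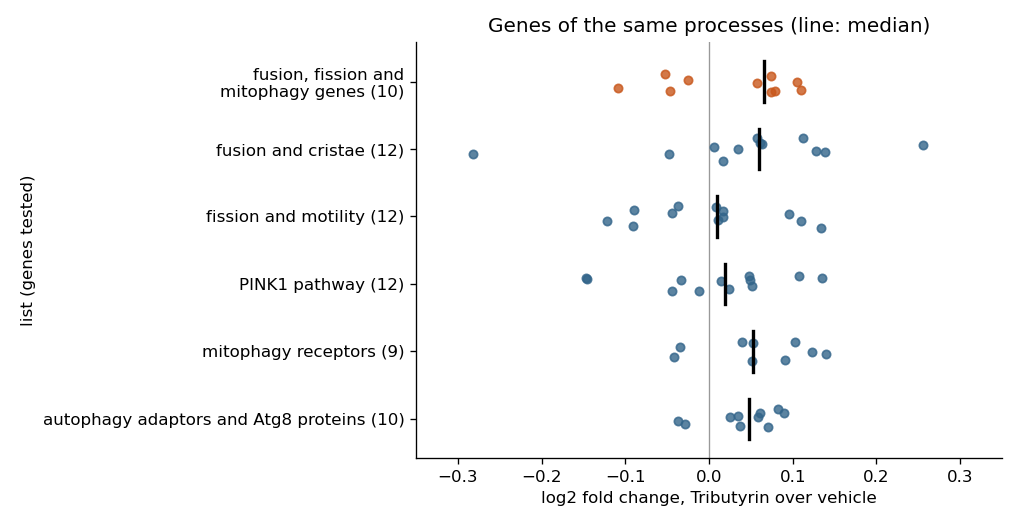
Log2 fold change of WD + Tributyrin over WD + Vehicle for the 10 genes (orange) and for the tested genes of the 5 sublists (blue), with 1 point per gene, a black line at the median of each list and no meaning to the vertical scatter within a list. Medians lie between 0 and 0.1, and the outermost points are *Chchd6* at -0.28 and *Apoo* at 0.26, both on the fusion and cristae list.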

How the data were processed

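Heart ventricle RNA of 6 mice (3 WD + Tributyrin, 3 WD + Vehicle, grouped by their labels) had been sequenced as stranded mRNA in single-end reads of 50 bases. The authors deposited unnormalized counts per gene, made by trimming adapters, removing poor and rRNA reads, aligning with STAR to mm10 and counting with htseq-count. The submitters' processing notes name cutadapt 1.13 and HTSeq 0.6.1p1, while the version of STAR, the annotation and the strand option of htseq-count were not stated there or in the methods. No line of the files names anything but a gene (0 lines). Names and exon lengths came from GENCODE M21 by Ensembl identifier (54165 of 54232 matched), and promoters from RefSeq (GRCm38.p6).

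The counts were fitted with edgeR 4.0.16 (quasi-likelihood test, TMM scaling, filterByExpr with minimum count 10 and total 15, no covariate), with Benjamini-Hochberg adjustment over 14133 genes and an FDR of 10%. R was 4.3.3 and Python 3.11.15. Alternatives were an FDR of 5%, DESeq2 1.42.0, limma-voom (limma 3.58.1), a robust prior, 3 scalings, 2 filters, a block on replicate number and leaving out each library. Another 2 were chosen after seeing the data: principal transcript lengths, and overlap of groups with library size alone. Ratios within a library were compared by two-sided exact permutation tests. The fitting was tested on simulated data. The changes put in were larger than those of the 10 genes, so recovery of changes as small as theirs was not tested. No pair of libraries agreed within sampling noise (chi-square per degree of freedom 7.4 to 31.84). Libraries of 20369746 to 32734485 counts gave each of the 10 genes at least 491 counts.

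The 10 genes and all lists were chosen with earlier results of these data known. Named beside the 10 were, of the wider list, the 3 highest and 3 lowest fold changes and the 3 smallest unadjusted p. *Vdac1*, *Ambra1*, the genes under the filter and *Xist* were named outside that rule. The labels do not say how the mice were housed or assigned, and p-values measure only the spread between these samples.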

Additional observations from a re-analysis of the deposited data

How the results depend on the processing

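Of 150 fold changes of the 10 genes under the alternatives, 146 kept their direction, 4 turned and 0 passed an FDR of 10%; an FDR of 5% also called 0. With library size alone the median of the 10 genes turned to -0.00769, *Mff* to -0.0161 and 1 gene, *Mfn2*, had an unadjusted p under 0.05, while the median of all genes moved by -0.07. Leaving out 1 library gave 0 to 1 genes at that p, the 1 being *Mfn2* without Tributyrin replicate 2, where 8 of the wider list and 1360 of all genes (600 with every library) had such a p. Leaving out 1 library also moved small fold changes by over 1.5 times. The range was -0.08 to -0.0038 for *Opa1* (nearest 0 without Tributyrin replicate 3), 0.02 to 0.15 for *Fis1* (without Tributyrin replicates 3 and 2), 0.02 to 0.12 for *Mff* and 0.03 to 0.12 for *Bnip3l* (both without Tributyrin replicates 1 and 2), 0.07 to 0.18 for *Pink1* (without vehicle replicates 2 and 1) and 0.07 to 0.18 for *Bnip3* (without Tributyrin replicates 2 and 1), so the order of the increases is not fixed. Fold changes that turned were those of *Dnm1l* (range -0.0548 to 0.0171, above 0 without vehicle replicate 3 or Tributyrin replicate 2) and *Fundc1* (-0.0829 to 0.00762, above 0 without vehicle replicate 2). The *Bnip3* to *Bnip3l* difference ranged from -0.0511 to 0.154, below 0 without Tributyrin replicate 2. Without Tributyrin replicate 3 the wider list split 31 higher and 24 lower.

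The number of all genes past an FDR of 10%, 0 in the main fit, was 167 with no filter on low counts, 11 with DESeq2 and 0 to 3 when 1 library was left out; with no filter 1178 had an unadjusted p under 0.05. The labels do not say whether replicate numbers pair the mice. The correlations of deviations were 0.307, 0.0712 and -0.00654, and without a reference value they cannot decide it. With the replicate block 2 of all genes and 0 of the 10 passed, and the *Mfn2* to *Mfn1* difference of -0.18 is the same by construction, since a block on complete pairs cannot move it. The cause of these changes was not tested. With 3 mice a group, a change in these genes smaller than about the half-width of its interval could not be told from 0, even before adjustment. To pass an FDR of 10% over 14133 genes a change would have to be larger still, and 0 genes passed in the main fit.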
